A study of Mus musculus with 24 samples.

Results

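Round spermatids are the first haploid male germ cells, and they were compared here with spermatocytes, the cells in meiosis from which they arise, in wild-type (WT) mice. Fractions of each stage came from adult testes of male mice of the B6/129sv background, let settle through a bovine serum albumin gradient, and the labels call the spermatid fraction round and early elongating. The comparison uses the 3 WT round spermatid arrays and the 3 WT spermatocyte arrays prepared directly from 3 fractionations, each of 2 pooled mice, which makes 6 of the 24 arrays of the series. WT arrays of both stages with the same number share a fractionation, and WT animals carry no change of Nutm1, the gene of a testis-specific nuclear protein that the study removed. The same stages of Nutm1 KO mice (3 arrays each, from 3 fractionations of 3 mice) were set beside them and entered the same model, which estimates 1 spread per gene over all 12 directly prepared arrays. The other 12 arrays hold RNA mixed from pairs of fractionations and were used only to check the measurement. The series text speaks of a knock down, whereas the labels say KO. Total RNA (200 ng, from Trizol extraction) was hybridised to Illumina bead arrays of 45281 probes. WT round spermatid arrays detected 15266, 14216 and 13849 probes and WT spermatocyte arrays 15362, 15837 and 16102, with median raw signals of 141.5 to 146.7 in round spermatids and 154.3 to 171.3 in spermatocytes.

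In meiotic prophase the X and Y chromosomes are packed into the sex body and silenced, and part of their genes is read again after meiosis. Round spermatids build the acrosome, a vesicle of egg-binding and digesting proteins, and the sperm tail, and they make the small basic proteins that later replace histones. Many of these RNAs are transcribed ahead of use and stored without being translated. Protein of a gene can therefore appear much later than its RNA, and an array reads only the RNA.

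Levels below are log2 signals after background correction and normalization, and differences are round spermatids minus spermatocytes, so that 1 stands for a doubling. A gene rose or fell when its adjusted p, from a limma model over all 12705 features and adjusted with Benjamini-Hochberg, was under 0.05. Between WT round spermatids and WT spermatocytes 7657 features (60.3%) changed, 3604 higher (28.4%) and 4053 lower (31.9%). The median size of these changes was 1.23. With genes undetected at one stage counted at their lower bound, changes of at least 8-fold were few, 65 higher and 60 lower, and at least 16-fold was reached by 0 genes that rose and 11 that fell. All 3 arrays of a stage lay apart from all 3 of the other in 8603 features (67.7%). With the fractionation as a replicate block 7723 features changed (60.8%), of which 7372 were also called without it. The median difference of all features was -0.12. Cyclic loess scaling moved it to 0.09 and turned the split to 4303 higher and 3164 lower of 7467 calls, so small differences in either direction depend on the scaling. P-values and standard errors (SE) measure the spread between the WT and KO fractionations together. With WT arrays alone 7713 features changed, of which 7331 were also called with both genotypes in the model. In bulk fractions, fewer cells of a type and less RNA per cell cannot be told apart.

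The fractions were first set against markers of the stages. Of 9 round spermatid markers 8 were measured, 6 of them were higher in round spermatids and 0 lower. Their mean level was 13.06, 13.17 and 13.18 on the round spermatid arrays, against 11.58, 11.81 and 12.49 on the spermatocyte arrays. Of 9 spermatocyte markers 5 were measured, and Piwil1, Spo11 and Hspa2 were lower in round spermatids and 0 were higher. The other measured markers, Sycp1 and Ccna1, did not pass. None of the measured round spermatid markers was near background in the spermatocyte fraction, where the lowest averaged 9.97. The lowest of the measured spermatocyte markers averaged 5.87 there, near background, so it carries little information on the fractions. Sycp3, Mybl1, H1f6 and Tbpl1 of the spermatocyte markers were not measured. The third spermatocyte array was the highest of its stage in 98 of the 109 rising members of 8 spermatid lists below, and the first in the other 11. It read, for example, 12.75 in the fibrous sheath list below, against 12.03 and 12.20 on the other spermatocyte arrays. Without it the median rise of the acrosome list was 1.61 in place of 1.26 and that of the sex-linked spermatid genes 2.16 in place of 1.95, with the same number of rises in both lists.

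Other cells of the testis also differed between the fractions. All 5 measured Leydig cell genes, of 10 listed, fell, and their mean level was 7.15, 5.66 and 6.56 in round spermatids, against 10.04, 10.68 and 9.67 in spermatocytes. Of these, Cyp11a1, Hsd17b3 and Star were detected on 0 of the 3 round spermatid arrays. Without fractionation 2, whose arrays lay farthest apart, 2 of the 5 falls passed. In KO mice the list read 7.62, 5.83 and 7.05 in round spermatids, against 12, 7.48 and 9.52 in spermatocytes, a wide spread that enters the SE of these genes. The 4 measured erythroid genes of 9 listed rose, namely the globin genes Hba-a1, Hbb-bs and Hbb-bt and the carbonic anhydrase gene Car2. Their mean level was 10.25, 10.57 and 9.79 in round spermatids, against 6.46, 6.89 and 7.10 in spermatocytes. In KO mice 3 of the 4 rose, while Car2 differed by 0.45 (SE 0.40) and did not pass. Car2 averaged 12.43 in WT round spermatids and 5.76 in KO round spermatids, apart from the globins, and its source was not tested. Macrophage genes rose in 11 of 14 measured (18 listed; 6 without fractionation 1 or without fractionation 3), with a mean level of 7.60, 7.01 and 7.78 in round spermatids, against 5.52, 6.30 and 5.75 in spermatocytes. Csf1r and C1qa, which mark macrophages, were detected on 0 spermatocyte arrays, and Aif1, a macrophage gene in this list, was far brighter than the rest of it at 13.06, 12.96 and 13.02 in round spermatids and 10.32, 10.67 and 11.75 in spermatocytes. Of 9 measured Sertoli cell genes (20 listed) 5 rose (2 without fractionation 1, 3 without fractionation 3), led by the cystatins Cst12 (1.81, SE 0.29) and Cst9 (1.61, SE 0.33), and the list read 8.29, 7.80 and 8.16 in round spermatids, against 7.11, 7.37 and 7.45 in spermatocytes. Of 7 measured genes of peritubular and endothelial cells (15 listed) Dcn (3.55, SE 0.71) and Vwf (0.97, SE 0.26) rose. Among 10 measured spermatogonial genes (19 listed) Zbtb16 rose (0.67, SE 0.18) and Id4 fell (-2.92, SE 0.26). Immediate early genes, which respond to handling of cells, rose in 3 of 10 measured (17 listed), Jund (2.55, SE 0.27), Klf4 (1.83, SE 0.28) and Egr3 (1.04, SE 0.24, at least 1.55-fold), while Fos differed by -0.13 (SE 0.52) and Egr1 by 0.00 (SE 0.42). The part of these cells in the results below was not tested, except where values are given.

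**Figure D1:**
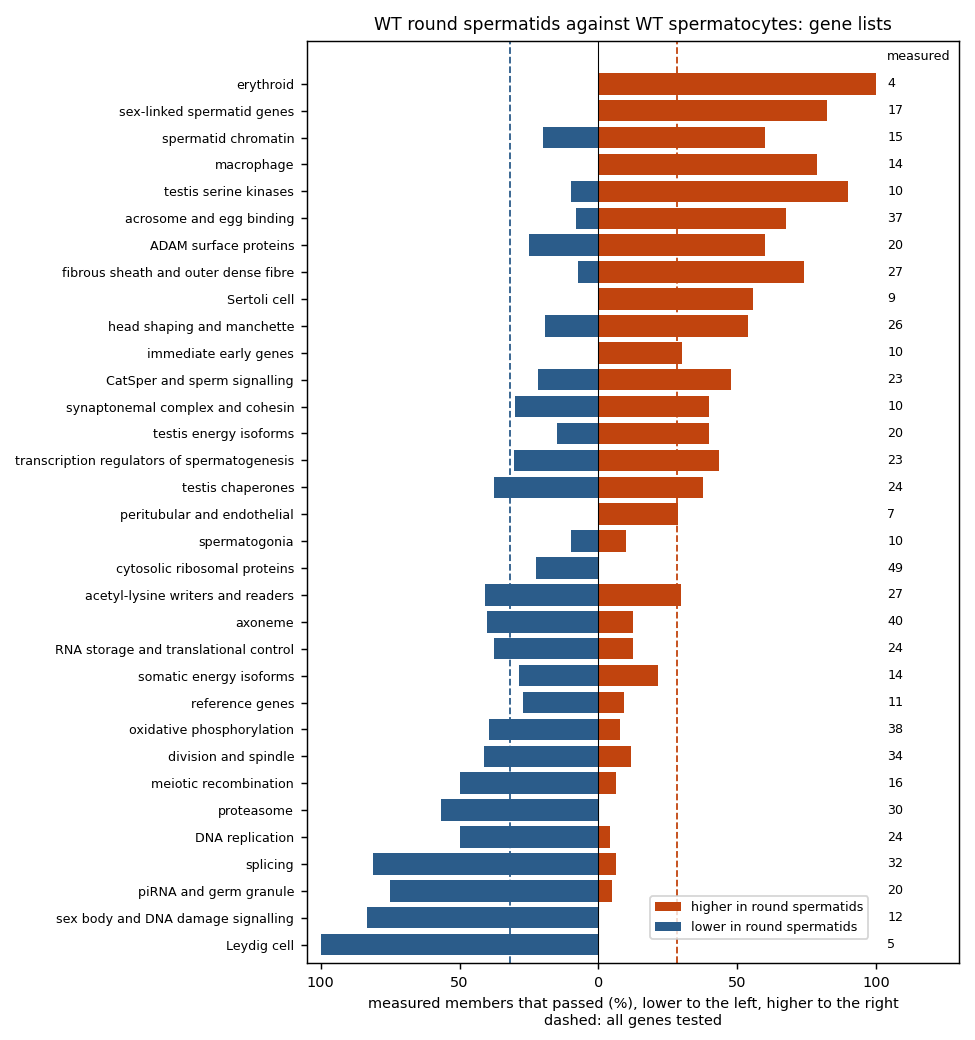
Share of the measured members of each of 33 gene lists that passed the test, lower in WT round spermatids to the left and higher to the right, with the number measured at the right edge. Dashed lines mark the shares over all genes tested, 31.9% lower and 28.4% higher; piRNA, splicing, sex body and Leydig lists lie mostly to the left, and sex-linked, kinase, acrosome and fibrous sheath lists mostly to the right.

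The measured members of a list are those detected on at least 3 of the 12 directly prepared arrays. A gene present at one stage alone passes this filter through that stage and then tends to differ, so list counts are descriptions to be read against the shares of all genes.

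Genes of spermatid chromatin were mostly higher in round spermatids. They include the transition proteins, which take the place of histones for a time, the protamines, which condense the finished sperm nucleus, and short histone variants of spermatids. Of 20 listed genes 15 were measured, 9 rose, 3 fell, and the median difference was 1.82. Tnp2, which encodes transition protein 2, read 11.82, 11.62 and 11.95 in round spermatids, against 9.82, 9.82 and 10.28 in spermatocytes, a rise of 1.82 (SE 0.19, adjusted p = 1.45e-05). Tnp1 was already bright in spermatocytes, with 14.65, 14.56 and 14.73 in round spermatids and 13.26, 13.64 and 13.77 in spermatocytes, and rose by 1.09 (SE 0.17). The stages did not overlap for either gene. Prm1, the gene of protamine 1, read 15.20, 14.97 and 15.04 in round spermatids and 14.65, 14.84 and 14.94 in spermatocytes. Its difference of 0.26 (SE 0.15) did not pass, and its values lie close to 15.27, the highest level any probe takes on these arrays. Prm3 rose by 2.50 (SE 0.25).

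The largest rise of this list was that of H2al2a, a short H2A variant that in mouse spermatids enters chromatin with the transition proteins, at 12.08 on 2 round spermatid arrays and 12 on the other, against 8.87, 8.81 and 9.72 on the spermatocyte arrays (2.92, SE 0.22). The related H2al1m (2.22, SE 0.21) and H2ap (2.54, SE 0.26) rose too, and since such genes lie in families of near-identical copies, a probe may read several of them. Of the other members, named after their values were seen, the H2B variant H2bl1 rose by 1.97 (SE 0.23), the linker histone H1f7 by 2.34 (SE 0.32) and the remodeller Chd5 by 1.92 (SE 0.24). The 3 falls were those of H3f3b (-2.66, SE 0.26), a gene of the replication-independent histone H3.3, of the ubiquitin ligase Rnf8 (-2.05, SE 0.26) and of Pygo2 (-1.42, SE 0.22), a reader of histone H3 methylation. The histone removal factor Psme4 differed by 0.15 (SE 0.15).

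Promoters of genes of this list and of a pair of glycolysis genes are shown here, because the elements known for spermatid genes were searched in them. Each is the RefSeq window of GRCm38.p6 from 250 bases before to 50 bases after the annotated start, on the strand of the gene, at chr16:10788606-10788905 (minus strand) for Tnp2, chr15:98257258-98257557 (minus) for H1f7, chr4:152338401-152338700 (plus) for Chd5, chr17:40208560-40208859 (minus) for Pgk2 and chrX:106186850-106187149 (plus) for Pgk1. Capitals mark the CRE core TGACG, read on either strand, and the X box core GTTGCC. The full CRE TGACGTCA, which contains the CRE core and is known as the site of the spermatid activator CREM, and the TATA box TATAAA were searched on both strands as well.
Tnp2: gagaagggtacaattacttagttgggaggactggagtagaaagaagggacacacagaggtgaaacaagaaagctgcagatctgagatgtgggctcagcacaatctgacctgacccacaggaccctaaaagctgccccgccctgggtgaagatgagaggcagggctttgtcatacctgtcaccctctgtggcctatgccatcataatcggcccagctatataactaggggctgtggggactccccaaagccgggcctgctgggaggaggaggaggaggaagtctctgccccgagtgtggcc
H1f7: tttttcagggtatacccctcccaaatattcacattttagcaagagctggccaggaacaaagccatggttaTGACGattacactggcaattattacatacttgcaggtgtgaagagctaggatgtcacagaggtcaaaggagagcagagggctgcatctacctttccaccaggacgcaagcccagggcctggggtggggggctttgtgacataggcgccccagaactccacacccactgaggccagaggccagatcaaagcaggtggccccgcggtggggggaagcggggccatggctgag
Chd5: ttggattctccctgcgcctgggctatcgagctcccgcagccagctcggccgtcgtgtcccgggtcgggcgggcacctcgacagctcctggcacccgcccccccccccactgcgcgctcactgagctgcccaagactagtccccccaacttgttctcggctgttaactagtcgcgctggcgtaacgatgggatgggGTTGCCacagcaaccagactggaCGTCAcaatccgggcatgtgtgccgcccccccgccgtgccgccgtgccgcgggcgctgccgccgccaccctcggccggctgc
Pgk2: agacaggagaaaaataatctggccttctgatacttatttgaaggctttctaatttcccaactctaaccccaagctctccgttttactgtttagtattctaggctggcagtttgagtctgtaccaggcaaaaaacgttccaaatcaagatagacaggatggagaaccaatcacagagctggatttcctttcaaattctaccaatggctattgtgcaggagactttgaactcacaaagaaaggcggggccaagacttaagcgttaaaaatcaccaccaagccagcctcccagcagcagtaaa
Pgk1: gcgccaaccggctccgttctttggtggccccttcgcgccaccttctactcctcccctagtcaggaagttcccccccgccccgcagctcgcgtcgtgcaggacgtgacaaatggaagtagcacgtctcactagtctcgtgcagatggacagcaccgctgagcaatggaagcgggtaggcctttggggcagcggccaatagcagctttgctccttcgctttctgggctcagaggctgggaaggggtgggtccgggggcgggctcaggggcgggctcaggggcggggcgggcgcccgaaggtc
H1f7 holds a CRE core 180 bases before the start, and Chd5 holds the X box core 55 bases and, on the other strand, a CRE core 32 bases before it. The windows of Tnp2, Pgk2 and Pgk1 hold none of the 4 strings. The start of Tnp2 lies 2.3 kb from that of Prm3 and 8.2 kb from that of Prm1. Of the 35 measured genes of the lists of spermatid chromatin and testis energy isoforms 32 had a window, of which 0 held the full CRE, 12 the CRE core, 3 the TATA box and 6 the X box core. The full CRE stood in 1.88% of all 27025 promoters of the same length, in 3.12% of those of 2178 genes that rose, in 3.48% of 2760 that fell and in 3.47% of 3286 that did not pass. For the CRE core these shares were 21.0%, 25.7%, 34.5% and 31.8%, for the X box core 12.7%, 16.7%, 12.7% and 13.1%, and for the TATA box 14.2%, 9.23%, 6.27% and 7.70%. The median GC content of the windows was 57.0% for genes that rose and 61.3% for those that fell, against 60.7% for genes not called. A match describes these letters only, and where a gene has several windows the first listed was used.

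Genes of the acrosome and of egg binding followed the same direction in 25 of 37 measured (44 listed), with 3 falls and a median difference of 1.26. The list read 11.62, 11.81 and 11.68 in round spermatids, against 10.43, 10.38 and 11.10 in spermatocytes. Prss55, a testis serine protease, read 12.50, 12.75 and 12.69 in round spermatids, against 9.61, 10.10 and 11.01 in spermatocytes (2.41, SE 0.29). The acrosomal protein gene Spaca9 rose by 2.08 (SE 0.22), Galntl5, a glycosyltransferase-like gene needed for sperm function in the mouse, by 2.48 (SE 0.30) and the actin-like gene Actl9 by 1.84 (SE 0.22). The marker genes of the acrosome moved unevenly, since Izumo1, the sperm protein that binds the egg receptor JUNO, rose by 1.64 and Acrv1 by 1.28, while Acr, the protease acrosin, differed by 0.25 (adjusted p = 0.27). The falls were Tmprss12 (-1.54), Agfg1 (-0.74) and Pick1 (-0.56).

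ADAM proteins and their helpers sit on the sperm surface and take part in migration and egg binding. Of 20 measured genes (25 listed) 12 rose and 5 fell (2 fell without fractionation 2 and 1 under cyclic loess scaling), with a median of 1.15. Adam6a read 10.12, 9.80 and 9.99 in round spermatids, against 7.35, 6.94 and 6.79 in spermatocytes, a rise of 2.94 (SE 0.37). Adam24 (2.47, SE 0.41), Adam21 (2.10, SE 0.37) and Ace, the angiotensin-converting enzyme with a testis form (1.49, SE 0.25), rose as well. The surface protein gene Tex101 (-1.83, SE 0.27), the chaperone Clgn (-0.62), Adam32 (-0.56) and Adam18 (-0.57) fell, and these were above 8 in both stages on every array.

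The parts of the sperm tail did not move together. Of the fibrous sheath and outer dense fibre list, the sheaths and fibres that wrap the tail, 27 of 35 genes were measured, 20 rose and 2 fell, with a median of 1.02 and list levels of 13.31, 13.33 and 13.38 in round spermatids, against 12.03, 12.20 and 12.75 in spermatocytes. Ropn1, a fibrous sheath protein that binds the anchors of protein kinase A, had the largest rise, at 9.46, 10.09 and 9.73 in round spermatids, against 6.03, 5.91 and 6.61 in spermatocytes (3.58, SE 0.30, 11.9-fold). Iqcf1 (2.01, SE 0.20), Spata18 (2.14, SE 0.33) and the mitochondrial sheath gene Spata19 (1.25, SE 0.18) followed. Of the axoneme, the microtubule core of the tail, 40 of 56 genes were measured, and here 16 fell and 5 rose, with a median of -0.26 that turned to 0.03 under cyclic loess scaling. Iqcg read 6.24, 6.50 and 6.43 in round spermatids, against 9.03, 8.72 and 8.62 in spermatocytes (-2.40, SE 0.22). The dynein heavy chain Dnah2 (-1.70, SE 0.20), the assembly factor Zmynd10 (-1.47, SE 0.18) and the central pair gene Spag6l (-1.19, SE 0.15) fell too. Tppp2 went the other way, with 12.22, 12.28 and 11.56 in round spermatids and 8.67, 8.17 and 9.81 in spermatocytes (3.14, SE 0.41), and the light chain Dnal1 rose by 1.07 (SE 0.20). A test of the difference between both tail lists was not made.

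Genes that shape the head rose in 14 of 26 measured (28 listed) and fell in 5, with a median of 0.76. The manchette is the microtubule skirt that moves material along the growing head. The kinesin Kif17 (2.49, SE 0.32), the antizyme inhibitor Azin2 (2.52, SE 0.33), Tbc1d21 (2.06, SE 0.30) and the nuclear envelope gene Sun3 (1.54, SE 0.25) rose. The transport genes Ift20 (-1.44, SE 0.19) and Ift140 (-1.34, SE 0.19) and the nuclear envelope gene of meiotic cells Sun1 (-1.51, SE 0.23) fell.

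For the calcium channel CatSper and sperm signalling, 23 of 29 genes were measured, 11 rose and 5 fell (7 and 3 without fractionation 2). Their median of 0.30, against -0.12 for all features, turned to -0.05 when no detection filter was set. Catsper1, a pore subunit, read 10.89, 11.22 and 11.14 in round spermatids, against 8.59, 8.36 and 9.63 in spermatocytes (2.22, SE 0.30). The kinase subunit Prkar2a (2.59, SE 0.23), the channel component Efcab9 (1.69, SE 0.25) and Plcz1, the sperm phospholipase that sets off calcium waves in the egg (2.26, SE 0.37), rose too. Tmem30c (-1.50, SE 0.19), the auxiliary subunits Catsperg2 (-0.91, SE 0.18) and Catsperb (-1.02, SE 0.21, at least 1.02-fold) and the phosphatase Ppp1cc (-0.51, SE 0.17) fell.

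Of the 12 listed testis serine kinases and partners 10 were measured, 9 rose and 1 fell. Tssk2 read 13.36, 13.44 and 13.44 in round spermatids, against 10.92, 11.13 and 12.41 in spermatocytes (1.93, SE 0.32), and Tssk6 (1.70), Tssk4 (1.66) and Tssk5 (1.11) rose. Their partners Tsacc, a co-chaperone, and Tsks, a substrate, rose by 0.68 and 1.16, and Stk33 by 0.91. Camk4, a kinase that phosphorylates protamines, was detected on 0 spermatocyte arrays and rose at least 4.22-fold, and Ttbk2, the kinase that starts cilia, also undetected there, at least 2.35-fold. Stk31 fell by 0.98.

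**Figure D2:**
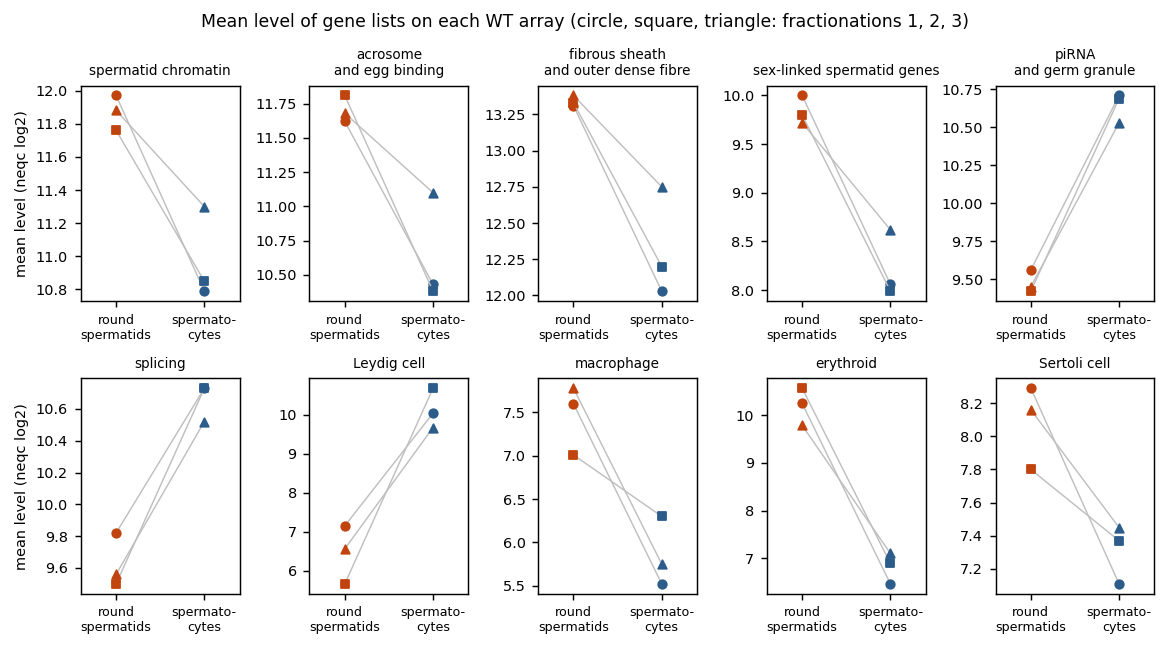
Mean level of the measured members of 10 gene lists on each WT array (neqc log2), round spermatids left and spermatocytes right, with grey lines joining the stages of a fractionation. In these 10 lists the stages do not overlap, and the third spermatocyte array (triangle) lies nearest to round spermatids in the spermatid lists.

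Transcription regulators of spermatogenesis were split, with 10 rises and 7 falls among 23 measured (31 listed). The share of rises was above the 28.4% of all features and that of falls near their 31.9%. Sox30, a regulator of the haploid program in the mouse, read 7.39, 7.47 and 7.72 in round spermatids, against 5.34, 5.48 and 5.94 in spermatocytes, where 1 array detected it (1.94, SE 0.23). Spz1, a basic helix-loop-helix factor, read 12.37, 12.17 and 12.31 in round spermatids, against 8.71, 9.18 and 10.57 in spermatocytes (2.80, SE 0.41), and the repressor Zmynd15 rose by 1.73 (SE 0.21). Brwd1 (-2.13, SE 0.28), a bromodomain protein needed for haploid transcription in the mouse, Rfx4 (-1.62, SE 0.22), Kctd19 (-1.06, SE 0.16) and Ovol1 (-1.30, SE 0.21), which mouse spermatocytes need to pass pachytene, fell. Crem, the gene of the activator of many spermatid promoters, has 5 measured probes, which gave 1.50, 0.48, -1.13, -1.30 and -1.34, all called, so no single direction holds for it. The second of these, from its brightest probe, did not pass with the replicate block (adjusted p = 0.0929).

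Enzymes and readers of lysine acetylation changed in both directions, with 8 rises and 11 falls of 27 measured (32 listed). The share of rises was near the 28.4% of all features and that of falls above their 31.9%. The list median of -0.19 turned to 0.18 under cyclic loess scaling. Nutm1 itself read 8.52, 8.40 and 8.18 in round spermatids, against 5.76, 6.17 and 6.89 in spermatocytes, a rise of 2.09 (SE 0.24, adjusted p = 2.64e-05). The stages did not overlap, and the first spermatocyte array was the lowest. Hdac5 (1.99, SE 0.30) and Hdac4 (1.41, SE 0.23), class II deacetylases, and Cdyl (1.86, SE 0.31), a chromodomain protein, rose. The acetyltransferases Kat6b (-1.79, SE 0.22) and Kat7 (-1.77, SE 0.23), the bromodomain reader Brd3 (-1.89, SE 0.23) and the deacetylase Sirt7 (-1.72, SE 0.22) fell. The testis bromodomain protein Brdt differed by 0.01 (SE 0.24) and Ep300, the acetyltransferase that the NUT protein binds, by 0.10 (SE 0.17).

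Genes of the piRNA pathway, which silences transposons in germ cells through small RNAs bound by PIWI proteins, and of germ granules were lower in round spermatids. Of 20 measured (23 listed) 15 fell and 1 rose, and the list read 9.56, 9.42 and 9.45 in round spermatids, against 10.71, 10.69 and 10.53 in spermatocytes. Piwil1, the PIWI protein of pachytene piRNAs, read 11.77, 11.37 and 11.72 in round spermatids, against 14.63, 14.73 and 14.61 in spermatocytes (-3.04, SE 0.18, adjusted p = 1.32e-06). Tdrd5, a Tudor protein of germ granules, read 8.30, 8.04 and 8.28 in round spermatids, against 11.49, 11.74 and 11.34 in spermatocytes (-3.32, SE 0.27). In both genes the stages lay far apart. Pld6 (-2.40, SE 0.23), of the piRNA maturation step at mitochondria, and Gpat2 (-2.08, SE 0.20) fell as well. Gtsf1, a partner of PIWI proteins, rose, at 9.99, 10.47 and 10.48 in round spermatids, against 8.07, 7.85 and 8.26 in spermatocytes (2.25, SE 0.22).

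Proteins that store RNA and hold back translation are needed where RNA is made ahead of use. Of 24 measured (31 listed) 9 fell and 3 rose, close to the shares of all genes for falls and below them for rises. Rbm44 (-2.12, SE 0.26), Khdrbs3 (-1.08, SE 0.17) and Celf1 (-1.12, SE 0.19) fell, and Fxr1, a binder of stored RNA that activates translation in mouse spermatids (1.48, SE 0.24), Paip2 (1.11, SE 0.27, at least 1.79-fold) and Cpeb2 (0.97, SE 0.26) rose. Ybx3, a Y-box protein of stored RNA, gave 0.84, -0.48 and -0.75 with its 3 probes.

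Meiotic genes were not all lower after meiosis. The synaptonemal complex, which joins homologous chromosomes, and cohesin had 10 of 15 listed genes measured, 4 higher and 3 lower. Syce2, a protein of the central element, was detected on 0 spermatocyte arrays and on all 3 of round spermatids, with 7.41, 7.95 and 7.85 in round spermatids and 4.85, 4.66 and 5.27 in spermatocytes, at least 4.72-fold higher. It has a single measured probe here, and which transcripts this probe reads was not tested. Rec8, the meiotic cohesin (1.46, SE 0.32), Smc3 (1.24, SE 0.26, at least 1.56-fold) and Syce3 (0.65, SE 0.19) rose. The cohesin Stag3 (-1.03, SE 0.17), Sycp2 (-1.10, SE 0.19) of the axis and Hormad2 (-1.20, SE 0.25) fell. Sycp1, Syce1 and Smc1b differed by 0.33, 0.22 and -0.10 and did not pass. The lowest of the measured spermatocyte markers, which include Sycp1, averaged 5.87 in spermatocytes. At such a level, near background, the lack of a fall carries little information.

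Of recombination genes 16 of 30 were measured, 8 fell and 1 rose, with a median of -0.53. Under cyclic loess scaling 6 fell and 4 rose with a median of -0.264, and with no detection filter the median was -0.137. Cdk2, a kinase that also sits at crossovers and telomeres in meiosis, read 10.24, 9.48 and 9.89 in round spermatids, against 12.55, 12.54 and 12.35 in spermatocytes (-2.61, SE 0.23). Mlh3, a mismatch repair protein of crossovers (-2.26, SE 0.22), Spata22 (-2.41, SE 0.35) and Cntd1 (-1.24, SE 0.17) fell, as did Spo11, which makes the breaks that start recombination (-1.37, SE 0.24). Brca2 rose by 0.43 with an adjusted p of 0.0477, and 0.0764 with the replicate block.

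Genes of the sex body and of the damage signalling that forms it fell in 10 of 12 measured (20 listed) and rose in 0, with a median of -1.45. The histone variant Macroh2a1, enriched on the silenced sex chromosomes, read 10.62, 10.41 and 10.52 in round spermatids, against 12.21, 12.31 and 12.22 in spermatocytes (-1.73, SE 0.16). Macroh2a2 (-2.12, SE 0.22), the checkpoint clamp subunit Rad1 (-2.02, SE 0.27) and Rnf8, which is also in the chromatin list, fell too. H2ax, the histone that is phosphorylated over the sex body, fell by 1.01 (SE 0.26).

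Division and replication genes were lower in part. Of 34 measured division and spindle genes (45 listed) 14 fell and 4 rose, with a median of -0.41. Under cyclic loess scaling 10 fell and 7 rose, with a median of -0.15. Cdca8, of the chromosomal passenger complex (-1.92, SE 0.17), the spindle kinesin Kif11 (-2.33, SE 0.21, detected on 1 round spermatid array), the shugoshin Sgo2a (-2.60, SE 0.28) and the midzone protein Prc1 (-1.98, SE 0.21) fell. The phosphatases Cdc25c, at 9.60, 9.65 and 9.67 in round spermatids and 7.31, 7.34 and 8.10 in spermatocytes (2.05, SE 0.21), and Cdc25a (1.52, SE 0.17) rose, as did the condensin Smc4 (1.15, SE 0.18) and Incenp (0.75, SE 0.19). Of 24 measured replication genes (27 listed) 12 fell, among them Gins2 (-1.49), Gins1 (-1.49), Mcm10 (-1.46) and Pola2 (-1.25), and the polymerase Pole rose (1.08, SE 0.25). The number of falls in this list was 6 without fractionation 2 and 5 under cyclic loess scaling.

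Lists of housekeeping machinery rose in a smaller share of measured genes than the 28.4% of all features. Falls were above the 31.9% of all features for splicing and the proteasome and nearer to it for oxidative phosphorylation. For ribosomal proteins and reference genes they were below it. Splicing factors had the clearest shift, with 26 falls and 2 rises of 32 measured (36 listed) and a median of -1.05. Rbm5 (-2.23, SE 0.20), Hnrnpm (-2.00, SE 0.20), the splice acceptor factor U2af1 (-1.78, SE 0.21) and Hnrnpl (-2.10, SE 0.25) fell, and Hnrnpa1 (0.79) and Snrpd2 (0.51) rose. The proteasome fell in 17 of 30 measured (36 listed) and rose in 0. Psma8, the alpha subunit of the testis proteasome, read 9.64, 9.52 and 9.31 in round spermatids, against 11.77, 12.16 and 11.97 in spermatocytes (-2.48, SE 0.25), and the general subunits Psmc4 (-1.17), Psmb4 (-1.14) and Psmd13 (-1.08) fell less. Of 38 measured subunits of oxidative phosphorylation (45 listed) 15 fell, led by Uqcrc2 (-1.58, SE 0.16), Uqcrq (-2.73, SE 0.32), Sdhc (-1.59, SE 0.20) and Cox4i1 (-1.10, SE 0.17), and 3 rose, with a median of -0.39. Under cyclic loess scaling 10 fell and 6 rose with a median of -0.032, and without the third spermatocyte array 21 fell and 1 rose. Of 49 measured ribosomal protein genes (78 listed) 11 fell (6 without fractionation 2) and 0 rose, and their median of -0.19 turned to 0.19 under cyclic loess scaling, with 8 rises and 6 falls there. Among 11 measured genes often used as references (15 listed) Ppia (-0.95), Tfrc (-2.11) and Tbp by its brightest probe (-0.36; adjusted p = 0.109 with the replicate block) fell and Actb rose (0.98), while Gapdh differed by 0.19 (SE 0.40).

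Sperm glycolysis runs on testis isoforms, several of which are bound to the fibrous sheath. Of 20 measured genes of the testis energy list (31 listed) 8 rose and 3 fell, with 4 rises when fractionation 2 was left out. The hexokinase Hk1 read 10.94, 10.83 and 11.16 in round spermatids, against 8.13, 8.42 and 9.20 in spermatocytes (2.39, SE 0.27). Gapdhs, the sperm form of glyceraldehyde phosphate dehydrogenase, rose by 1.55 (SE 0.28) and the phosphoglycerate kinase Pgk2 by 1.08 (SE 0.23). The glucose transporter Slc2a3 fell (-1.33, SE 0.15), and so did the cytochrome oxidase subunit Cox8c (-0.59, SE 0.16). Of the somatic forms 14 of 21 were measured, and Aldoa (1.50, SE 0.30), Pkm (1.84, SE 0.55) and the X-linked Pgk1 (1.26, SE 0.36) rose while Pfkm (-0.90), Ldha (-0.57), Slc2a1 (-1.05) and Aldoc (-2.03, at least 3.05-fold) fell. Pfkfb4 gave 1.93 and -0.90 with its probes.

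Autosomal retrogenes are thought to stand in for X-linked parents silenced in meiosis, and 15 such pairs were listed. Both genes were measured in 8 pairs. Pgk2 and its parent Pgk1, whose promoters are printed above, both rose, as did Ubl4b (2.44, SE 0.38) and its parent Ubl4a (1.94, SE 0.29). Prps1l1 fell (-0.44; adjusted p = 0.0777 with the replicate block) while its parent Prps1 rose (1.33). Rpl39l (0.90) and Tktl2 (0.91) rose, and their parents Rpl39 (0.33) and Tktl1 (0.27) did not pass. Timm8a2 fell (-0.77) and its parent Timm8a1 differed by -0.08. In the pairs Rbmxl2 (-0.11) with Rbmx (0.08) and Fam50b (-0.36) with Fam50a (-0.17) neither gene passed. Of pairs measured in part, Cetn1 (1.23) and Gk2 (1.02) rose, and the parents Pdha1 (-0.94) and Cstf2 (-0.02) did not pass.

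Chaperones of the testis list rose and fell in equal number, 9 each of 24 measured (28 listed), with 4 rises when fractionation 2 was left out. Over all features 28.4% rose and 31.9% fell. Dnajb8 (2.07, SE 0.24), the haploid HSP70 Hspa1l (2.12, SE 0.28), Dnajb3 (1.09, SE 0.18) and the testis chaperone Calr3 (1.35, SE 0.29) rose. The chaperonin subunit Cct6a (-1.35), Hspa4l (-1.97, detected on 1 round spermatid array), Hspa9 (-1.10) and Hsph1 (-1.57) fell, and Hspa2, the HSP70 of meiosis, fell by 0.66 (SE 0.14).

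**Figure D3:**
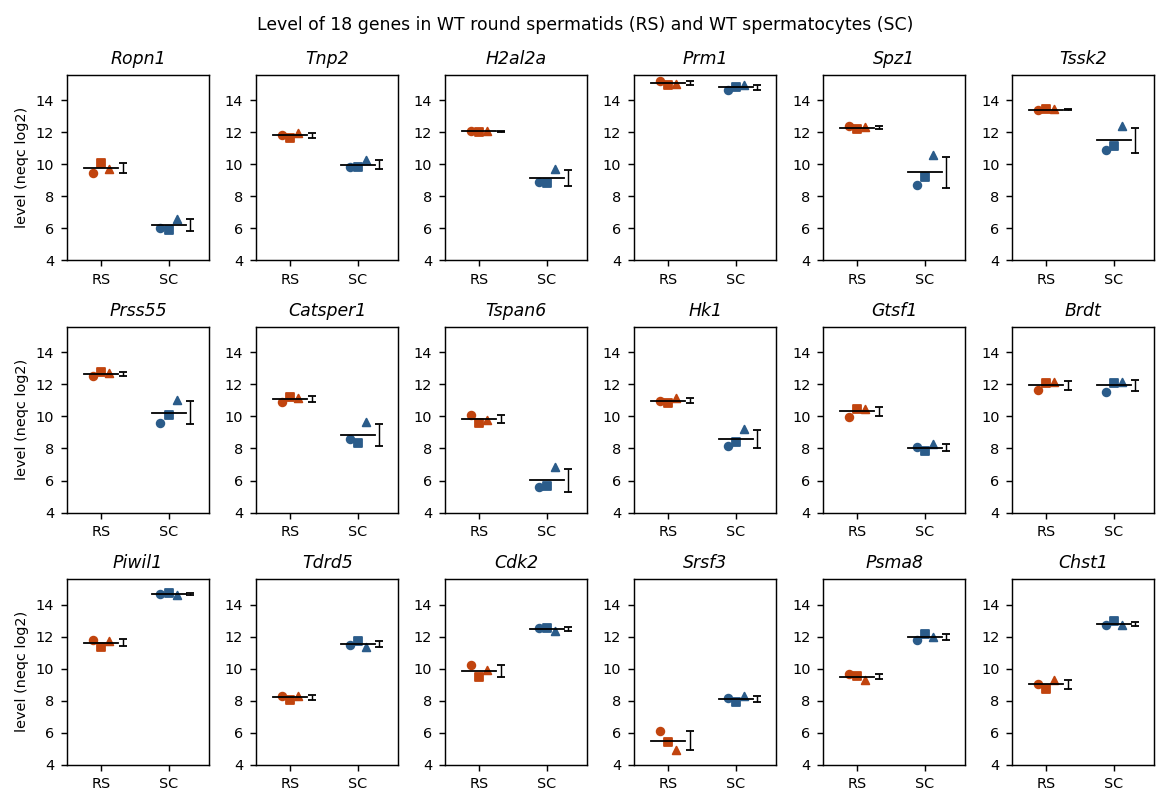
Level of 18 genes (neqc log2) on the 3 WT round spermatid arrays (RS, left) and the 3 WT spermatocyte arrays (SC, right), with markers for fractionations 1 (circle), 2 (square) and 3 (triangle), lines at the mean and bars of 1 SD. The stages do not overlap except in Brdt, and Prm1 lies near the upper end of the scale in both.

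The sex chromosomes stood apart from the autosomes. Of 311 X-linked genes tested 141 rose (45.3%) and 5 fell (1.61%), against 26.2% and 34.6% of 9712 autosomal genes, and no autosome reached the X: rises ranged over 21.9% to 33.2% of genes and falls over 28.9% to 40.8%. The few X-linked falls depended on the setting, with 9 under the replicate block, 18 with WT arrays alone, 29 with array weights, 25 with mixed arrays alone, 2 with the authors' deposited normalized values, 1 under cyclic loess scaling and 1 to 13 with arrays left out. The median difference was 0.55 for X-linked and -0.21 for autosomal genes, and the mean level of X-linked genes was 7.95, 7.69 and 7.68 in round spermatids, against 6.70, 6.96 and 7.18 in spermatocytes. No detection filter brought the X-linked median to 0.08 and the authors' deposited normalized values to 0.25. Over all 1227 X-linked probes the share detected overlapped between the stages, at 29.8%, 25.6% and 24.2% in round spermatids and 22.6%, 26.6% and 27.5% in spermatocytes. For autosomal probes these shares were 37.4%, 34.8% and 34.0% in round spermatids and 38.1%, 39.3% and 39.7% in spermatocytes.

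Among X-linked genes, named after their values were seen, Tspan6, a tetraspanin, had the largest rise, with a mean of 9.82 in round spermatids and 6.02 in spermatocytes, where 2 arrays detected it (3.80, SE 0.33). Rises were also large for 1700010D01Rik (3.21), Tmsb15a (3.05), Ssxb5 (2.99), Tceal1 (2.95), Ssxb8 (2.94), Ssxb2 (2.93) and Cpxcr1 (2.75). The falls were Efnb1 (-2.15), Lage3 (-1.06), Cask (-0.66) and, undetected on all 3 round spermatid arrays, Tmem35a (at least 2.31-fold) and Fmr1 (at least 1.96-fold). Of 18 other settings Cask lost the call in 12, among them the replicate block (adjusted p = 0.0621), Efnb1 and Tmem35a in 11 each and Lage3 in 6. Under cyclic loess scaling these 4 lost it, and Fmr1 passed in all 18. Of the 17 measured genes of the list of sex-linked spermatid genes (28 listed) 14 rose and 0 fell. Cypt1, whose cysteine-rich protein is thought to be nuclear in mouse spermatids, read 12.12, 12.25 and 12.11 in round spermatids, against 9.39, 9.39 and 10.16 in spermatocytes (2.51, SE 0.26). The related Cypt2 (2.69, SE 0.27), Ott (2.35, SE 0.23) and Cypt15 (2.31, SE 0.15, at least 2.88-fold) rose, and members of the Cypt, Ssxb, Ott, Ssty and Sly families may share probes. On the Y 13 of 14 genes rose, among them Eif2s3y (2.28), Sly (1.95) and Ssty1 (1.95), and Uty differed by -0.03. The promoters of 270 X-linked genes held the full CRE in 2 cases (0.741%), against 3.38% of all 8224 genes tested that have a window. For the CRE core these shares were 28.5% and 31.1%, for the X box core 14.1% and 13.9%, and for the TATA box 11.9% and 7.62%. The median GC content was 54.0% for X-linked windows and 60.3% for all genes tested, and its part in these shares was not tested.

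**Figure D4:**
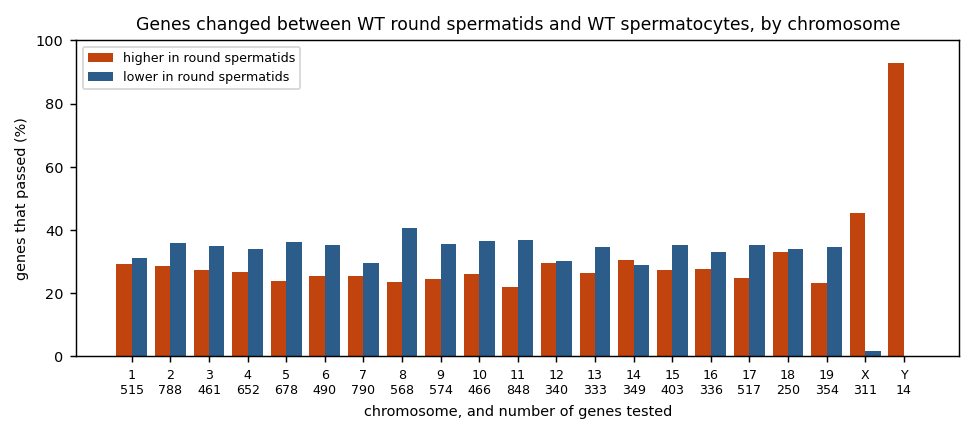
Share of the genes tested on each chromosome that were higher (orange) or lower (blue) in WT round spermatids than in WT spermatocytes, with the number tested below each name. The X has 45.3% higher and 1.61% lower and the Y 92.9% higher, while autosomes lie between 21.9% and 33.2% higher.

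The genes with the largest rises that were detected on all 6 arrays with no overlap were mostly not in the lists above. A total of 1798 genes rose under this rule, which leaves out probes without a gene and clone, model or locus names such as those with Rik or Gm. Among all 12705 features, 3920 had every round spermatid array above every spermatocyte array. Cyp2a12, a cytochrome P450 known from liver, read 11.23, 11.33 and 11.01 in round spermatids, against 7.25, 7.20 and 8.34 in spermatocytes (3.59, SE 0.26, 12.04-fold, adjusted p = 2.51e-06). The kallikrein gene Klk1b9 read 10.45, 10.63 and 10.68 in round spermatids, against 6.59, 6.94 and 7.68 in spermatocytes (3.52, SE 0.31). Defb33, a beta-defensin, read 12.99, 12.84 and 13.11 in round spermatids, against 9.41, 9.73 and 10.02 in spermatocytes (3.26, SE 0.26). Among the 12 largest of these rises, the third spermatocyte array was the highest of its stage in all except Calml4 and Hbb-bt. Tctex1d1 (3.56), of a dynein light chain family, Fam220a (3.35), Noxred1 (3.31), the calmodulin-like Calml4 (3.25) and the serine protease Prss52 (3.22) rose nearly as much. Car2, a carbonic anhydrase that is also in the erythroid list, read 12.29, 12.48 and 12.52 in round spermatids, against 8.27, 8.80 and 10.30 in spermatocytes (3.31, SE 0.40). The beta globins Hbb-bs (3.34, SE 0.34) and Hbb-bt (3.22, SE 0.31) rose with the alpha globin Hba-a1 of the same erythroid list (3.69, SE 0.38).

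Of genes detected on 0 spermatocyte arrays and all 3 of round spermatids, 125 rose without overlap, with the same kinds of names left out. Among rises of any name, 374 were undetected on all spermatocyte arrays. Kiss1, the gene of the reproductive peptide kisspeptin, read 8.11, 8.02 and 8.40 in round spermatids, against 5.35, 5.17 and 5.40 in spermatocytes, and was at least 6.39-fold higher. Syce2 and Camk4 came next, followed by the homeodomain factor Onecut3 (at least 4.22-fold), Tmem255b (3.40-fold), Bpifb3 (3.19-fold), Tmigd3 (3.10-fold) and Ankrd22 (2.97-fold), all as lower bounds. Here a bound is the mean of the detecting group over, per array of the other group, the lowest level detected there or the gene's own level if higher.

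The largest falls differed in their spread. In 15 of the 20 falls named the SE, which rests on WT and KO arrays together, was 0.76 to 1.16. The larger of the SDs of the WT stages ran from 0.40 to 1.72 in these genes, and with WT arrays alone all 15 passed, with adjusted p of 9.94e-05 to 0.00185. Cyp17a1, an enzyme of androgen synthesis in Leydig cells, read 9.34, 5.98 and 8.27 in round spermatids, against 12.93, 13.88 and 12.73 in spermatocytes (-5.32, SE 1.15, 39.9-fold, adjusted p = 0.00168). Its lowest round spermatid and highest spermatocyte array were those of fractionation 2, as for the mean of the Leydig cell list given above. The kallikreins Klk1b21 (-5.22, SE 0.98) and Klk1b27 (-5.18, SE 0.97), Ephx1 (-4.59), Akr1cl (-4.12), Fabp3 (-4.08), Lcn2 (-3.94), the Leydig hormone Insl3 (-3.70) and Gsta3 (-3.69) fell too. Of genes undetected in round spermatids, Agt, the gene of angiotensinogen, fell at least 13.3-fold, the steroid enzymes Hsd17b3 and Cyp11a1 at least 9.14-fold and 8.37-fold, Ugt1a6b and Ugt1a6a, which share most of their sequence, at least 7.25-fold and 6.33-fold, and Cldn10 at least 5.19-fold. Without fractionation 2 the falls of Agt, Akr1cl, Fabp3, Hsd17b3, Insl3, Lcn2, Ugt1a6a and Ugt1a6b no longer passed, with differences of -2.61 to -3.75 and adjusted p of 0.0535 to 0.109.

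The other 5 named falls had an SE of 0.19 to 0.30 and larger WT SDs of 0.20 to 0.52, a range that overlaps with that of the 15 genes above. Slc1a3, a glutamate transporter, read 5.24, 5.25 and 5.71 in round spermatids, where 0 arrays detected it, against 9.47, 9.19 and 9.11 in spermatocytes, at least 11.1-fold lower (adjusted p = 8.91e-07). Chst1, a sulfotransferase, read 9.02, 8.75 and 9.29 in round spermatids, against 12.71, 12.95 and 12.72 in spermatocytes (-3.77, SE 0.27, 13.7-fold). Fam13c read 6.40, 6.53 and 6.78 in round spermatids, against 10.19, 10.48 and 10.30 in spermatocytes (-3.75, SE 0.25). In these 3 genes the stages lay far apart. Kbtbd6, an adaptor of a ubiquitin ligase (-3.66, SE 0.30), and the zinc finger gene Zbtb8a (at least 5.47-fold lower) fell too, with SDs of 0.45 and 0.52 between the round spermatid arrays. With the same names left out as for the rises, 2449 genes detected on all 6 arrays fell without overlap. A separate 353 genes, detected on all 3 spermatocyte arrays and 0 of round spermatids, fell without overlap too. Among all 12705 features, 4683 had every round spermatid array below every spermatocyte array.

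The same stages were compared in Nutm1 KO mice, whose levels and differences come from other arrays, while the spread behind both sets of calls is shared. There 6399 of 12705 features changed (50.4%), 3351 higher and 3048 lower in KO round spermatids. Of the 3604 WT rises 2673 (74.2%) were called in the same direction in KO and 9 in the opposite one, and of the 4053 WT falls 2756 (68.0%) in the same and 16 in the opposite one. The stage differences of the 2 genotypes correlated at r = 0.88 across features, which are not independent replicates. The falls Chst1, Fam13c, Kbtbd6 and Zbtb8a measured -3.58, -3.85, -3.55 and -3.03 in KO and -3.77, -3.75, -3.66 and -3.002 in WT. Slc1a3, the other fall with a small SE, measured -3.26 in KO and -3.86 in WT, the widest gap of this group. Slc1a3 and Zbtb8a were undetected in WT round spermatids, so their WT values are not exact sizes. The stage difference itself differed between the genotypes in 189 of 12705 features with adjusted p under 0.05 (1895 with an unadjusted p under 0.05). Among them were 8 of the 40 largest rises and falls named above. Those 40 were chosen by their WT stage difference, which is part of the gap tested, so the choice favours gaps with the larger change in WT. For Cyp2a12 the stage difference was -0.09 in KO and 3.59 in WT, with means of 4.58 in KO round spermatids and 4.67 in KO spermatocytes. On 0 KO arrays of either stage was it detected, so the KO value is a difference of undetected signals.

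**Figure D5:**
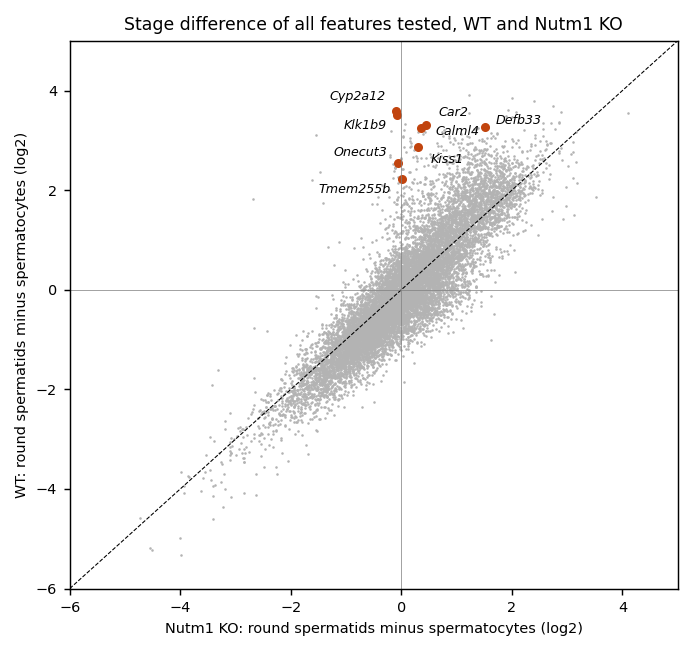
Round spermatids minus spermatocytes (log2) of 12705 features in WT (vertical axis) against Nutm1 KO (horizontal axis), with the line of equal difference dashed. Most features lie along the line, and the 8 named genes in orange, such as Cyp2a12 at -0.09 in KO, where it was undetected, and 3.59 in WT, lie above it.

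A gene with several probes is given by its brightest. Of 3330 genes with several measured probes 235 (7.06%) had probes called in both directions, 12 of them among the 237 list genes with several probes. Beside Crem, Ybx3, Pfkfb4, Agfg1, Rfx4 and Tbp these are Clip1, Dnali1, Ly6k, Rrm2, Sox5 and Tcp1. Rfx4 gave 1.47, -0.63 and -1.62, Dnali1 0.78 and -1.31, and Rrm2 1.78, 0.83 and -0.61. Whether such probes read different transcripts was not tested.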

How the data were processed

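RNA of germ cell fractions from the albumin gradient was measured on Illumina bead arrays. One table that the authors deposited gives raw intensity values by probe, per the file headers, and its columns show no scaling to each other. Beside each value stands a detection p-value, also deposited, per the file headers, with no account of how it was computed. A further deposited table holds intensity values already normalized by the authors, with the same distribution in each column. The scanner software, bead summary and background step are not given in the sources used here. Per the labels' protocols, biotinylated cRNA was made from 200 ng of total RNA.

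The raw values of the 24 arrays went through neqc (limma 3.58.1, offset 16, R 4.3.3), which corrects background from the detection p-values, normalizes by quantiles and takes log2. A probe entered when its detection p was under 0.01 on 3 or more of the 12 direct arrays (17401 probes, 38.4%). The brightest probe stood for its gene, giving 12705 features (10076 named genes and 2629 probes without a gene). The platform annotation pairs 34885 probes with 1 gene, 18 with more than 1 and 10378 with no gene. For 34807 the RefSeq table of GRCm38.p6 gave the symbol and chromosome. A linear model of 4 groups of 3 direct arrays was fitted with lmFit and eBayes of limma (8 residual and 4.07 prior degrees of freedom), tested on simulated data. All adjusted p-values of genes come from limma, adjusted with Benjamini-Hochberg over all features. The number of arrays limits the precision.

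Same-numbered WT arrays share a fractionation, per the labels, and residuals of such pairs correlated at 0.25, -0.20 and 0.20, those of other pairs at -0.36 to 0.16. The fit with this replicate block is given where it changes a call. Mixed arrays deviated from the mean of their component arrays by a median of 0.164 to 0.229 (log2), where the components differed by 0.228 to 0.337.

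Genes were named by rule: the 12 largest rises and falls detected on all 6 arrays, the 8 largest lower bounds in each direction, and up to 4 members of each of 33 lists (929 entries) per direction by smallest p. The rules for rises, falls and bounds left out probes without a gene and clone, model or locus names. Further rules named stage markers, retrogene pairs, list genes whose probes disagree and the measured members of lists of up to 16 entries. In the reference list and the peritubular and endothelial list only some measured members are named. X-linked genes and a few list members were named after their values were seen, as the text states. The members and lists were chosen with earlier results of these data known. Lists carry counts and medians and no test, since 3 against 3 arrays cannot go below p = 0.10 in an exact 2-sided permutation test. Alternatives were the block, WT arrays alone, cyclic loess, the deposited normalized values, other filters, array weights, mixed arrays, every probe and leaving out arrays.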

Additional observations from a re-analysis of the deposited data

Results flagged for a closer look

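Among the 269 genes named, 16 had a stage difference that itself differed between WT and Nutm1 KO mice (limma interaction, Benjamini-Hochberg adjusted p under 0.05). Over all 12705 features 189 did. The genes were named largely by their WT stage difference, which is part of this gap, so the choice favours gaps with the larger change in WT. Gaps are given as WT stage difference minus KO stage difference. The gap was 3.68 (SE 0.36, adjusted p = 9.58e-04) for Cyp2a12, 3.59 (SE 0.44) for Klk1b9, 2.88 (SE 0.39) for Calml4, 2.86 (SE 0.56) for Car2, 2.61 (SE 0.42) for Onecut3, 2.57 (SE 0.25) for Kiss1, 2.21 (SE 0.26) for Tmem255b and 1.76 (SE 0.37) for Defb33. KO stage differences were -0.09 for Cyp2a12, -0.08 for Klk1b9, 0.36 for Calml4, 0.45 for Car2, -0.06 for Onecut3, 0.30 for Kiss1, 0.01 for Tmem255b and 1.51 for Defb33. Cyp2a12, Onecut3, Kiss1 and Tmem255b were detected on 0 of the 6 KO arrays, Klk1b9 and Calml4 on 1 and Car2 on 3. In these 7 genes the KO stage differences are therefore mostly between undetected signals, and neither they nor the gaps are exact sizes.

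Of the list genes the gap was 1.73 for H2al2a, 1.55 for Cypt15, 1.78 for Prkar2a, 1.72 for Hdac4, 1.67 for Tceal1 and 1.42 for Ttbk2, all with the larger rise in WT. Cypt15 and Ttbk2 were detected on 0 KO arrays and Prkar2a on 0 KO spermatocyte arrays, so these gaps too are not exact. Hdac4 measured -0.30 in KO and 1.41 in WT. Tfrc fell by less in KO (-0.88) than in WT (-2.11), a gap of -1.23, and Timm8a2 fell by more in KO (-2.66) than in WT (-0.77), a gap of 1.89. No rule for single outlying values was applied, since each group has 3 arrays.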

How the results depend on the processing

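Over 18 alternative settings the number of changed genes ran from 5935 (without fractionation 2) to 9278 (array weights), apart from 10460 of 17401 probes when every probe was tested on its own. No setting with directly prepared arrays called any of the 7657 changes in the opposite direction, and mixed arrays alone did so for 19. X-linked falls, 5 as reported, ran from 1 to 29 over the settings. Leaving out arrays gave 5935 to 7525 changes. The X-linked median difference of 0.55 was 0.25 with the authors' deposited normalized values and 0.079 with no detection filter, which lets in many undetected genes, and 0.32 to 0.69 with arrays left out. The median of the CatSper list turned to -0.051 with no detection filter. That of the immediate early genes (0.34) was -0.20 with array weights and ran from -0.094 to 0.955 with arrays left out. With mixed arrays alone Gk2 (-0.15), Ly6k (-0.29), Paip2 (-0.30) and Stk33 (-0.21) changed sign, and the cause was not tested. Cyclic loess shifted the median of all genes from -0.12 to 0.09 and turned the medians of the axoneme, ribosomal, acetyl-lysine and spermatogonial lists (the last to 0.06) above 0. Of 4839 comparisons of the 269 genes named, 4606 kept direction and side of the threshold, 221 (in 50 genes) lost the call, 8 gained it and 4 are the sign changes just given. With the replicate block Brca2, Cask, Crem, Prps1l1, Tbp and Tcp1 lost the call (Tcp1 at adjusted p = 0.0760), and the block changed no other call of a named gene. Probes near background carry little information: 374 of the rises were undetected on all spermatocyte arrays and 610 of the falls on all round spermatid arrays. Their sizes are lower bounds only, or differences of undetected signals where no WT array of either stage detected the gene, as for the X-linked rise of Brwd3 (0.78).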
